A study of Mus musculus with 6 samples.

Results

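Levels of 8 genes that shape the life of messenger RNA were followed in mouse blood neutrophils: Zfp36, Zfp36l1, Zfp36l2, Zc3h12a, Btg1, Btg2, Tob1 and Tob2. They were found by gene symbol among the 47561 features that each library listed, all 8 of 8. RNA sequencing was done on neutrophils taken from peripheral blood by flow cytometry, in 3 AVP libraries and 3 control libraries. The AVP libraries came from mice profiled after 30 days of AVP administration. The control libraries came from mice labelled as a negative control. The labels leave the abbreviation AVP unexpanded, they use the same words, AVP and control, as genotype entries, and they name no strain, allele, age, dose or vehicle. Separate animals behind the samples are not stated either, and p-values may therefore reflect technical spread alone.

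Many short-lived transcripts of immune cells carry AU-rich elements in their 3′ untranslated region (UTR). ZFP36 (tristetraprolin or TTP) and its paralogs ZFP36L1 and ZFP36L2 bind such elements through paired CCCH zinc fingers and recruit the CCR4-NOT deadenylase, which shortens the poly(A) tail. Zc3h12a encodes regnase-1, an endonuclease that cuts stem-loops in the 3′ UTRs of cytokine transcripts. BTG1, BTG2, TOB1 and TOB2 share a domain that binds the CAF1 subunit of CCR4-NOT, through which they promote deadenylation, and were first known as antiproliferative proteins. In myeloid cells TTP is known as a brake on TNF and on neutrophil-attracting chemokines.

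The motif that ZFP36 proteins are best known to bind is the nonamer TTATTTATT (written as DNA), and it is shown here because it stands in the transcripts of the ZFP36 family itself. In 1 GENCODE M21 transcript per gene (GRCm38), the 3′ UTRs of Zfp36, Zfp36l1 and Zfp36l2 each held 1 nonamer and those of Zc3h12a, Btg1, Btg2, Tob1 and Tob2 held 0. Over all protein-coding genes with a 3′ UTR, 1477 of 20729 (7.125%) held at least 1. The sites lie at chr7:28376953-28376977 (minus strand) in Zfp36, chr12:80108169-80108193 (minus strand) in Zfp36l1 and chr17:84184916-84184940 (minus strand) in Zfp36l2. A site of the chemokine Cxcl2, at chr5:90905318-90905342 (plus strand), and the site of Cxcl3, at chr5:90787869-90787893 (plus strand), stand beside them as sites of reported ZFP36 targets. Capitals mark the nonamer, and each line reads 5′ to 3′ on the transcript's strand.
Zfp36 site: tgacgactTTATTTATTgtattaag
Zfp36l1 site: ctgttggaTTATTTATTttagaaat
Zfp36l2 site: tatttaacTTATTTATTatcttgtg
Cxcl2 site: gagttcacTTATTTATTtatctatg
Cxcl3 site: atcagttgTTATTTATTgaaatggt
The site began 589 bases after the stop codon in the 774-base 3′ UTR of Zfp36, at base 1404 of 1835 in Zfp36l1 and at base 821 of 1822 in Zfp36l2. The Cxcl2 3′ UTR held 4 nonamers in 734 bases. No match in a UTR says only that these letters are not in that transcript's window.

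**Figure D1:**
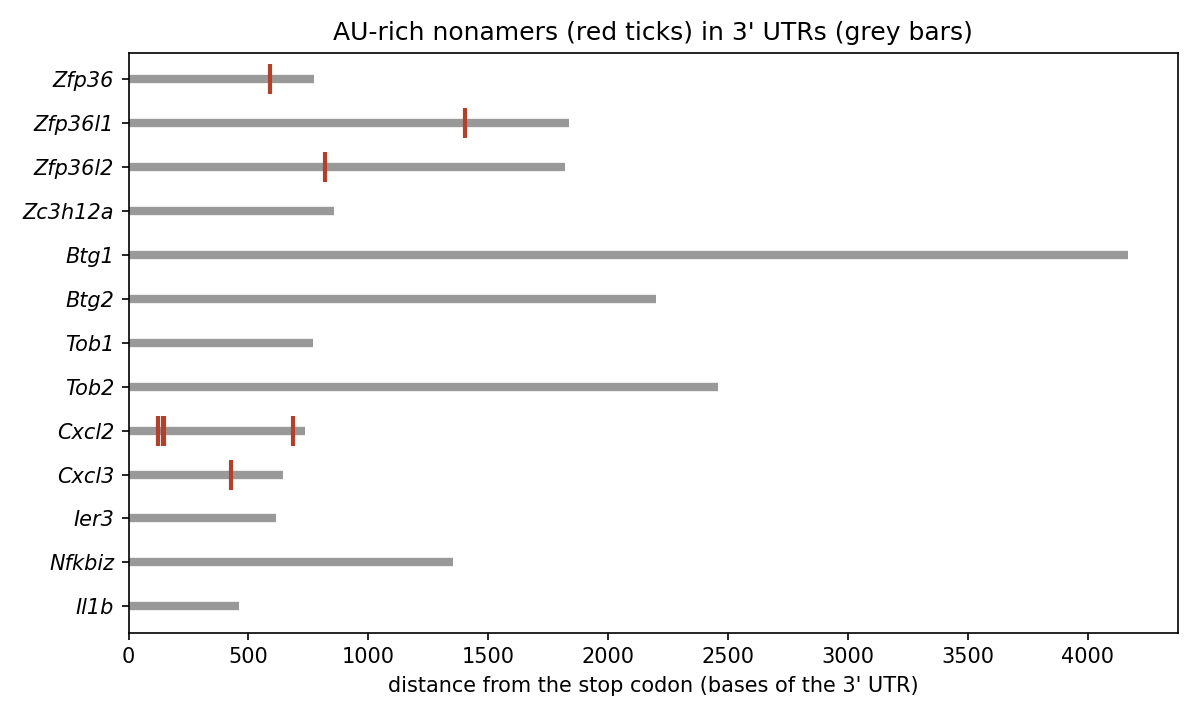
Positions of the AU-rich nonamer (red ticks) along the 3′ UTR (grey bars, x axis in bases from the stop codon) of the 8 decay factors and of 5 reported target transcripts. Zfp36, Zfp36l1 and Zfp36l2 have 1 tick each, Cxcl2 has 4 (of which 2 overlap) and Cxcl3 has 1, while the other genes drawn have 0.

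Promoters are shown for Zfp36 and Btg2, the members that varied most closely together over the 6 libraries. RefSeq promoter sequences (GRCm38.p6) were at hand for 7 of the 8 members, and windows of 250 bases before to 50 bases after the start were searched on both strands. Btg2 held the cyclic AMP response element TGACGTCA (CRE), at position −166 from the gene's start, as did 2.234% of 21263 protein-coding promoters. Zfp36 held a CArG box, the motif of serum response factor, at position −58, as did 1.524% of those promoters. The AP-1 motif (TGACTCA or TGAGTCA) and the kappaB site had no match in the 7 windows and stood in 4.656% and 4.811% of all promoters. The TATA box letters TATAAA stood in the windows of Zfp36l1, Btg1 and Tob1 and in 12.6% of all promoters. Capitals mark the CArG box in Zfp36 (chr7:28379229-28379478, minus strand) and the CRE in Btg2 (chr1:134079156-134079405, minus strand).
Zfp36 promoter: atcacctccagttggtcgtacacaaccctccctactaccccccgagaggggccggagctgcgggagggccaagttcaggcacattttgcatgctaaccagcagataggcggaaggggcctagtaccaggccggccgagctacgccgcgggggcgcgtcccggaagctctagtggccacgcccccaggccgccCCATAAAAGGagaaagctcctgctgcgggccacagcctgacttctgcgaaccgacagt
Btg2 promoter: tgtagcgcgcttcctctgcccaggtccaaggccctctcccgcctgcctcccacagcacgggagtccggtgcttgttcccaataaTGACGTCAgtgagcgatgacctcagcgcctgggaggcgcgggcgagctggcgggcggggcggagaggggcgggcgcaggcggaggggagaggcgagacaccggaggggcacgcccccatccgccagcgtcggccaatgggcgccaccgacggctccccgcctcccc
A match is a description of the letters and not a measured binding site.

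Values are FPKM, which count fragments relative to transcript length and to library depth, and 10628 to 12195 features per library lay above 0. Depth was estimated at about 14199000 to 16845000 fragments per library from the commonest low product of FPKM and gene length among short pseudogenes. That product was taken as the value of a lone fragment and sought within a fixed window. The window bounds the estimate, so depth and the fragment numbers below are rough. Summed over 20 neutrophil markers, levels were 170500 to 199000 FPKM in AVP libraries and 173700 to 193700 FPKM in control libraries. Most of that sum is S100a8 and S100a9, and single markers differed more. Of the 20, 8 lay wholly higher in the AVP libraries, and Mmp9, named after its values were seen, wholly lower. Retnlg, Lcn2, Il1r2 and Mxd1 were among the 8 and had log2 fold changes of 1.10 to 1.84. Over all 20 markers the log2 fold change ran from −1.89 to 2.52. The 10 B cell markers summed to 2027 to 6673 FPKM in AVP libraries and 6490 to 8799 FPKM in control libraries. The 16 monocyte and dendritic cell markers summed to 1984 to 8090 FPKM in AVP libraries and 3602 to 6791 FPKM in control libraries, with Siglech listed at 0 throughout. T and NK cell markers summed to 3.11, 15.4 and 162 FPKM in AVP replicates 1, 2 and 3 and to 4.69 to 16.6 FPKM in control libraries. Cd3e, Cd4 and Cd8a were listed at 0. Basophil and eosinophil markers summed to 331, 8.15 and 12.7 FPKM in AVP replicates 1, 2 and 3 and to 4.87 to 20.2 FPKM in control libraries. Epx and Prg2 were at 0. Red cell markers summed to 119500 to 242700 FPKM in AVP libraries and 102800 to 154900 FPKM in control libraries, with Klf1 at 0. Platelet markers summed to 84.4 to 214 FPKM in AVP libraries and 99.5 to 199 FPKM in control libraries, with Tubb1 at 0. In bulk samples, fewer cells of a type and less RNA per cell cannot be told apart.

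Group differences were tested with limma on log2(scaled FPKM + 1) over the 8523 features that reached 1 FPKM in 3 or more libraries, a filter that all 8 members passed through libraries of both groups. At an adjusted p under 0.05, 0 features were higher (0.0%) and 0 lower (0.0%) after AVP, so none of the 8 members passed. At an unadjusted p under 0.05, 402 features (4.72%) were higher and 320 (3.75%) lower, and among the members Zfp36 and Btg2 were on the higher side. On the scaled values, the AVP libraries lay wholly above the control libraries for 3 of the 8 members (37.5%; Zfp36, Btg1 and Btg2), against 7.49% of all features tested and 8 of 20 neutrophil markers (40%). The level matters for that background: among the 615 features that average at least 100 FPKM, as those 3 members do, the same was seen in 17.4%. No member had AVP libraries wholly below the controls, against 6.49% of features. On the deposited values the higher side held 2 of the 8 members (Zfp36 and Btg2), against 6.39% of features, and the lower side 0, against 7.63%. The median log2 fold change was 0.39 over the 8 members (0.21 without AVP replicate 3), 6 of them above 0, and −0.04 over all features tested, of which 47.9% lay above 0. Each fold change below is AVP over control on the log2(FPKM + 1) scale, which understates changes of low genes.

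Zfp36, which encodes TTP, had the highest mean level of the 8 factors in both groups, although Btg1 exceeded it in control replicates 1 and 2, and had the largest fold change among them. Its level was 773.5, 1096 and 771.5 FPKM in AVP replicates 1, 2 and 3, against 419.4, 330.9 and 631.8 FPKM in control replicates 1, 2 and 3. The lowest AVP library lay above the highest control library, on the deposited and on the scaled values, and control replicate 3 stood nearest to the AVP libraries. The mean was 880.3 ± 187 FPKM after AVP and 461 ± 155 FPKM in controls (SD, n = 3 each), a 1.91-fold ratio. The fitted log2 fold change was 1.05 (SE 0.27, 95% interval 0.44 to 1.66), with an adjusted p of 0.295 by limma with Benjamini-Hochberg adjustment, and ranked 121 of 8523 by p. Exact permutation of the libraries gave a two-sided p = 0.1, which is the floor for groups of 3. Zfp36 (gene 22695) is protein-coding and lies at chr7:28376784-28379228 in GRCm38.

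Zfp36l1, a paralog known for roles in lymphocyte development, stood far below Zfp36. It had 40.8, 70.8 and 58.1 FPKM in AVP replicates 1, 2 and 3, against 56.6, 42.2 and 25.7 FPKM in control replicates 1, 2 and 3. The groups overlapped, since AVP replicate 1 lay below the 2 highest control libraries. The means were 56.6 ± 15.0 FPKM after AVP and 41.5 ± 15.5 FPKM in controls (SD, n = 3 each). The log2 fold change was 0.56 (SE 0.38, 95% interval −0.31 to 1.42), with an adjusted p of 0.772 by limma. It ranged over 0.25 to 0.80 as each library was left out. The gene (12192) lies at chr12:80107760-80113013.

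Zfp36l2, the paralog best known from blood stem cells and oocytes, was the ZFP36 gene whose mean was lower after AVP. It had 69.3, 76.8 and 96.3 FPKM in AVP replicates 1, 2 and 3, against 118, 124 and 69.1 FPKM in control replicates 1, 2 and 3. Control replicates 1 and 2 lay above all AVP libraries and control replicate 3 lay below them, so the groups overlapped through that library. The log2 fold change was −0.24 (SE 0.32, 95% interval −0.97 to 0.49), with an adjusted p of 0.879 by limma. It was −0.16 without AVP replicate 2, −0.13 without control replicate 1, −0.08 without control replicate 2 and −0.51 without control replicate 3, and in the last case the groups did not overlap. The summed B cell markers were 2027, 6673 and 4942 FPKM in AVP replicates 1, 2 and 3, against 7455, 8799 and 6490 FPKM in control replicates 1, 2 and 3. In the control libraries most of that sum was Igkc, at 4563, 6228 and 3355 FPKM, lowest in replicate 3 as Zfp36l2 was. Other B cell markers did not share that order. Ighm (530.5, 382.0 and 557.9 FPKM) and Cd74 (1384, 1028 and 1569 FPKM) were highest in control replicate 3. Cd79b and Ms4a1 were not lowest there. All 10 B cell markers had a fold change below 0, with a median of −0.696 on the log2 scale (−0.275 without AVP replicate 1). Their part in the Zfp36l2 values was not tested. The gene (12193) lies at chr17:84183924-84187947.

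**Figure D2:**
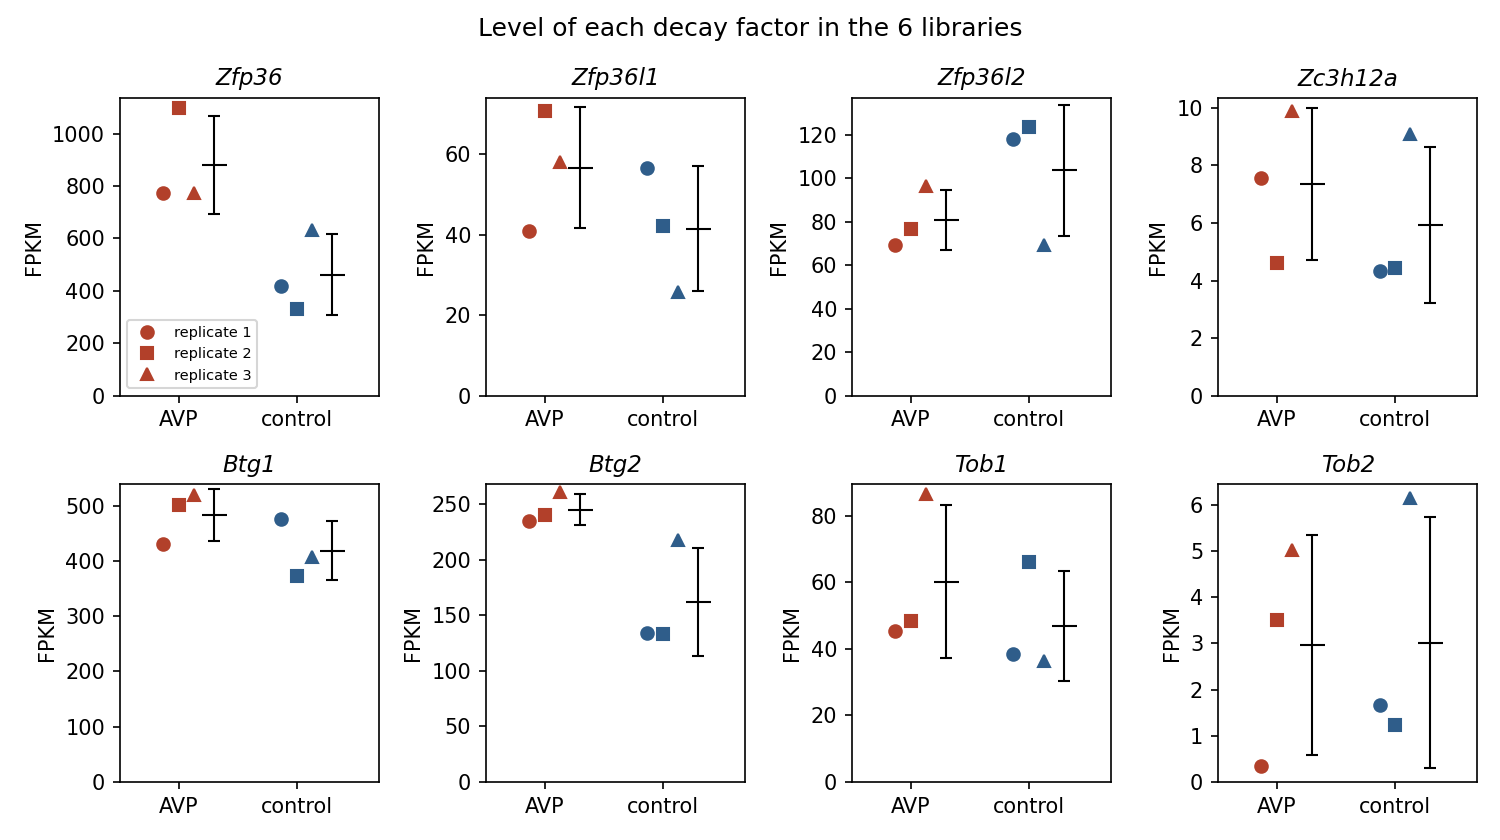
Level of each decay factor (y axis, deposited FPKM from 0) in the AVP libraries (red, left) and control libraries (blue, right), with replicates 1, 2 and 3 as circle, square and triangle and the mean ± SD in black (n = 3 each). In Zfp36 and Btg2 the AVP libraries lie wholly above the controls, while the blue triangle, control replicate 3, is the highest control for Zfp36, Btg2, Zc3h12a and Tob2 and the lowest for Zfp36l1, Zfp36l2 and Tob1.

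The composition of the ZFP36 family also set control replicate 3 apart. Zfp36 made up 87.5%, 88.1% and 83.3% of the summed FPKM of the family in AVP replicates 1, 2 and 3, against 70.6%, 66.6% and 87.0% in control replicates 1, 2 and 3. The Zfp36 share in control replicate 3 fell within the AVP range, so the groups overlapped, and the difference of 11.6 percentage points had p = 0.2 by an exact permutation test (two-sided, adjusted p = 0.467 over 7 shares). It was 7.56 points without control replicate 2 and 17.7 points without control replicate 3. The Zfp36l2 share was 7.85%, 6.17% and 10.4% in AVP replicates 1, 2 and 3, against 19.9%, 24.9% and 9.51% in control replicates 1, 2 and 3. The Zfp36l1 share was 4.62%, 5.69% and 6.28% in AVP libraries, against 9.53%, 8.50% and 3.54% in control libraries. The family's summed level was 884, 1243 and 926 FPKM in AVP libraries and 594, 497 and 727 FPKM in control libraries, without overlap. Most of that sum is Zfp36, so it repeats the pattern of that gene.

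Ratios within a library do not depend on the scaling between libraries, and 6 were compared. Zfp36 over Zfp36l2 was 11.2, 14.3 and 8.01 in AVP replicates 1, 2 and 3, against 3.55, 2.675 and 9.14 in control replicates 1, 2 and 3. The groups overlapped because control replicate 3 exceeded AVP replicate 3 (exact permutation p = 0.2, adjusted p = 0.3 over the 6 ratios). Zfp36l1 over Zfp36l2 was 0.589, 0.922 and 0.603 in AVP libraries, against 0.479, 0.341 and 0.372 in control libraries. That ratio did not overlap between the groups although each gene on its own did (exact permutation p = 0.1, adjusted p = 0.3 over the 6 ratios), and here control replicate 3 stood among the other controls.

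**Figure D3:**
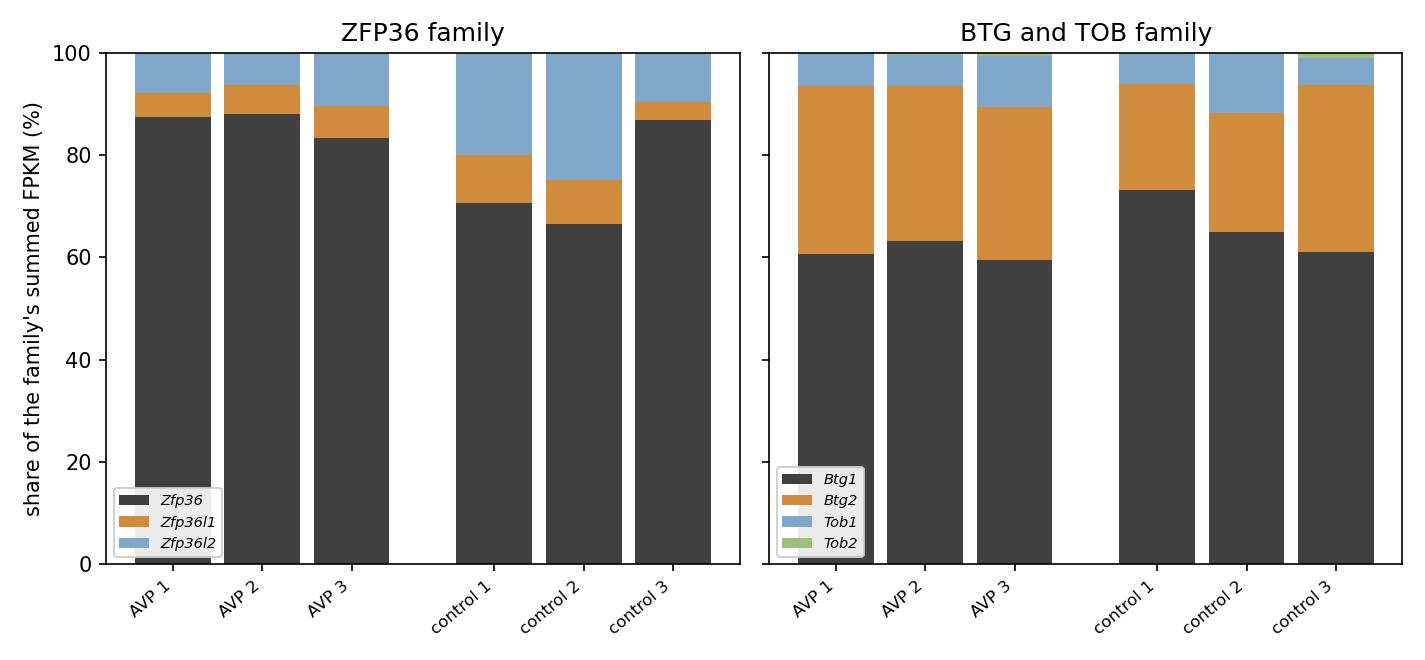
Share of each gene (y axis, % of the family's summed FPKM) in the ZFP36 family (left panel) and in the BTG and TOB family (right panel), 1 stacked bar per library with AVP libraries left of control libraries. Zfp36 takes 83.3% to 88.1% in AVP libraries and 66.6% to 87.0% in control libraries, and the bars of control replicate 3 resemble the AVP bars in both panels.

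Zc3h12a, the regnase-1 gene, was a low transcript. It had 7.54, 4.61 and 9.90 FPKM in AVP replicates 1, 2 and 3, against 4.32, 4.44 and 9.07 FPKM in control replicates 1, 2 and 3. Only control replicate 3 kept the groups from separating, as it lay above AVP replicates 1 and 2. The means were 7.35 ± 2.65 FPKM after AVP and 5.95 ± 2.71 FPKM in controls (SD, n = 3 each), and the log2 fold change was 0.36 (SE 0.59, 95% interval −1.01 to 1.72) with an adjusted p of 0.904 by limma. It ranged over 0.15 to 0.66 as each library was left out. An estimated 170 to 459 fragments per library lay behind these values. The gene (230738) lies at chr4:125118414-125127881.

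Btg2, known as an early-response gene and a target of p53, was the BTG gene with the largest fold change. It had 234, 239.8 and 260.4 FPKM in AVP replicates 1, 2 and 3, against 134, 133 and 218 FPKM in control replicates 1, 2 and 3. The AVP libraries lay wholly above the controls on both scales, with control replicate 3 again nearest to them. The coefficient of variation was 5.59% over the AVP libraries and 30.04% over the control libraries. The means were 245 ± 13.7 FPKM after AVP and 162 ± 48.5 FPKM in controls (SD, n = 3 each), a 1.52-fold ratio. The log2 fold change was 0.72 (SE 0.26, 95% interval 0.12 to 1.32), with an adjusted p of 0.471 by limma and an exact permutation p = 0.1. The gene (12227) lies at chr1:134074865-134079155.

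Btg1, a close relative of Btg2 and a marker of quiescent cells, was at a level like that of Zfp36 in controls. It had 430.4, 501.5 and 519 FPKM in AVP replicates 1, 2 and 3, against 476, 373 and 407 FPKM in control replicates 1, 2 and 3. On these deposited values the groups overlapped, as control replicate 1 exceeded AVP replicate 1. On the scaled values they did not, at 483, 483 and 524 FPKM in AVP libraries against 459, 367 and 392 FPKM in control libraries, so the separation depends on the scaling. The log2 fold change was 0.30 (SE 0.19, 95% interval −0.14 to 0.73), with an adjusted p of 0.763 by limma. The gene (12226) lies at chr10:96617001-96622813.

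Tob1, which links CCR4-NOT to the poly(A)-binding protein, had 45.3, 48.5 and 86.6 FPKM in AVP replicates 1, 2 and 3, against 38.3, 65.9 and 36.2 FPKM in control replicates 1, 2 and 3. AVP replicate 3 and control replicate 2 each stood above the others of their group, and the groups overlapped (log2 fold change 0.43, SE 0.39, adjusted p = 0.83 by limma). Its log2 fold change ranged over 0.15 to 0.71 as each library was left out. Tob2, its paralog, had 0.350, 3.50 and 5.02 FPKM in AVP replicates 1, 2 and 3, against 1.67, 1.23 and 6.15 FPKM in control replicates 1, 2 and 3. Tob2 ranged over an estimated 22 to 363 fragments per library. Its log2 fold change was −0.04 (SE 0.79, 95% interval −1.86 to 1.79), so the interval spanned large differences of either sign. Tob1 (22057) lies at chr11:94209842-94215495 and Tob2 (57259) at chr15:81848270-81858326.

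The BTG and TOB genes together gave 710.5, 793 and 871 FPKM in AVP libraries, against 649.7, 573 and 667 FPKM in control libraries, and these sums did not overlap. Btg2 made up 33.0%, 30.2% and 29.9% of them in AVP replicates 1, 2 and 3, against 20.6%, 23.3% and 32.6% in control replicates 1, 2 and 3. As with Zfp36, the share in control replicate 3 lay within the AVP range and the groups overlapped (exact permutation p = 0.3, adjusted p = 0.525 over 7 shares). Btg1 held 60.6%, 63.2% and 59.6% in AVP libraries, against 73.3%, 65.0% and 61.0% in control libraries.

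**Figure D4:**
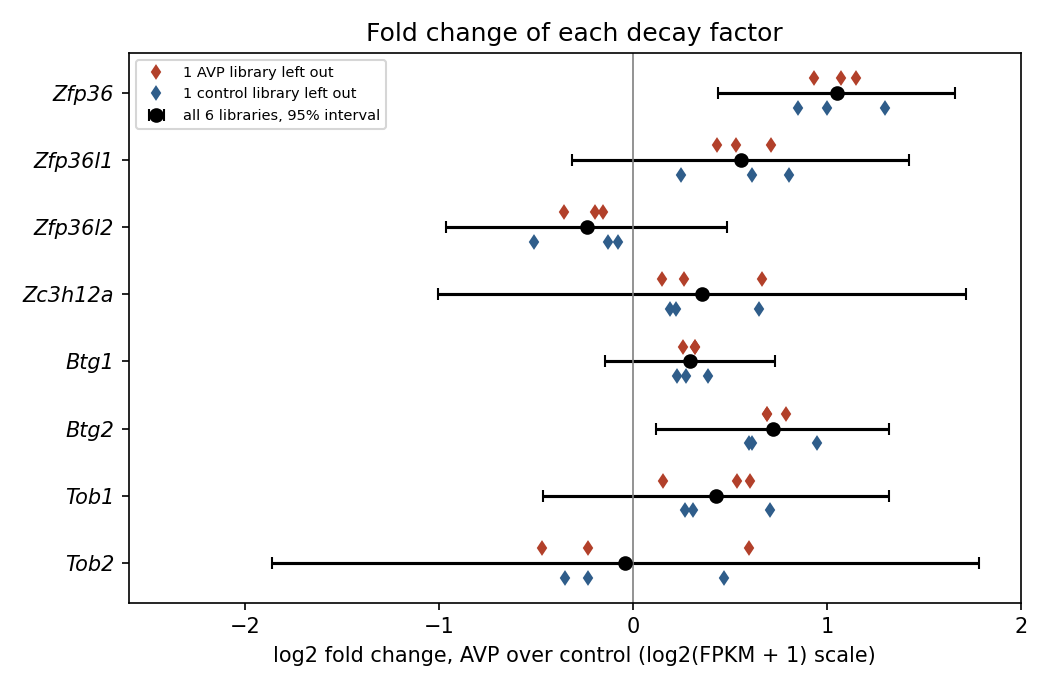
Log2 fold change of each decay factor, AVP over control, on the log2(FPKM + 1) scale (black points, with the 95% interval from limma), and the value with 1 AVP library (red) or 1 control library (blue) left out. The intervals of Zfp36 (0.44 to 1.66) and Btg2 (0.12 to 1.32) lie above 0 and the other 6 span it, and Tob2 is the member whose sign turns when a library is left out.

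Levels per length put the 8 genes in nearly the same order in every library. Zfp36 ranked first in all 3 AVP libraries and in control replicate 3, and Btg1 ranked first in control replicates 1 and 2. Zfp36 over Btg1 was 1.80, 2.185 and 1.49 in AVP replicates 1, 2 and 3, against 0.881, 0.888 and 1.55 in control replicates 1, 2 and 3 (exact permutation p = 0.2, adjusted p = 0.3 over the 6 ratios). Btg2 came next and Zfp36l2 after it in all 6 libraries, Zfp36l1 and Tob1 exchanged the next places between libraries, and Zc3h12a and Tob2 came last. Zfp36l1 and Tob1, as neighbours in that order, did not differ beyond their spread in either group. By its mean level, Zfp36 stood at the 98.7th percentile of the features tested, Btg1 at the 98.0th, Zc3h12a at the 46.6th and Tob2 at the 22.6th.

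Over the 6 libraries, Zfp36 and Btg2 had the highest Pearson correlation of any pair of members, 0.92 on log2(scaled FPKM + 1), and Zfp36 and Zfp36l2 the lowest, −0.76. Btg2 and Zfp36l2 stood at −0.72 and Zc3h12a and Btg2 at 0.76. These are descriptions over 6 points that share the group difference and control replicate 3. Likeness was sought among 4494 other tested features with a mean of at least 5 FPKM. Predicted genes, pseudogenes and antigen receptor segments were left out. The closest to Zfp36 were Siglecl1 (r = 0.99), the cystine transporter gene Slc7a11 (0.99) and the Krüppel-like factor gene Klf10 (0.99). Siglecl1 was near the floor in control libraries, at 0.242, 0 and 2.45 FPKM. Those closest to Btg2 were the nuclear long noncoding RNA Malat1 (0.99), the phosphatase inhibitor gene Ppp1r11 (0.98) and Hmgn2 (0.98), a nucleosome-binding protein gene. Klf10 had 17.8, 22.5 and 16.9 FPKM in AVP replicates 1, 2 and 3, against 5.85, 4.43 and 9.71 FPKM in control replicates 1, 2 and 3. Malat1 had 1109, 1122 and 1197 FPKM in AVP replicates, against 853, 844 and 1108 FPKM in control replicates. Both were picked for their likeness, so the shared pattern is part of that choice.

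The other members had other companions. Those closest to Zfp36l2 were the calprotectin gene S100a8 (r = 0.99), Tespa1 (0.97) and Pcyt1a (0.96), those closest to Zfp36l1 were the NF-kB cofactor gene Bcl3 (0.97), Rnf139 (0.97) and Cd244a (0.96), and those closest to Zc3h12a were Txlng (0.99), Cenpl (0.97) and Vps37c (0.97). For Btg1 they were Trim11 (0.99), Ilkap (0.99) and Smndc1 (0.98). For Tob1 they were Blk (0.98), a kinase known from B cells, Stard7 (0.98) and Daxx (0.98). With 6 libraries and 4494 candidates, high values arise for any gene: 85 features exceeded 0.9 for Zfp36, 98 for Btg2 and 21 for Zfp36l2. S100a8 had 95290, 107100 and 114000 FPKM in AVP replicates 1, 2 and 3, against 121800, 121500 and 105400 FPKM in control replicates 1, 2 and 3 (log2 fold change −0.06).

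The remaining relatives of the 8 genes were low or listed at 0. Zfp36l3, Zc3h12b, Btg4, Btg1b and Btg1c were at 0 in all 6 libraries. The pseudogene Zfp36l1-ps, which could share reads with Zfp36l1, reached at most 0.0595 FPKM. Btg3 was at 0.397, 0 and 0 FPKM in AVP libraries, against 1.53, 5.94 and 0 FPKM in control libraries. Of 9 relatives sought, including the roquin genes Rc3h1 and Rc3h2, whose proteins act on some of the same stem-loops as regnase-1, 4 were tested, 0 passed and 0 had groups that did not overlap (against 7.49% higher and 6.49% lower of all features tested). The log2 fold change was 0.60 for Rc3h2 (SE 0.61) and −0.06 for N4bp1, an RNase related to regnase-1 (SE 0.59).

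The machinery that the 8 factors recruit gave no call. Of 14 tested genes of CCR4-NOT, other deadenylases and poly(A)-binding proteins, 0 passed the test, 7 lay above 0 and 7 below, and the median log2 fold change was −0.04 (−0.24 to −0.08 as each library was left out). Cnot6l, a catalytic deadenylase, was the 1 gene of these whose groups did not overlap, at 2.37, 5.77 and 4.95 FPKM in AVP libraries against 12.4, 6.95 and 7.265 FPKM in control libraries (log2 fold change −0.83, SE 0.57). That is 7.14% of the 14, against 6.49% of all features tested on the lower side. For Cnot2, a scaffold subunit, the log2 fold change was −1.66 (SE 0.75, adjusted p = 0.614 by limma), and −0.95 without AVP replicate 3. Of 17 tested decapping and 5′ to 3′ decay genes, 0 passed, 5 lay above 0 and 12 below, with a median of −0.42 that was −0.10 without control replicate 1 or 2, −0.17 without AVP replicate 1 and −0.24 without AVP replicate 3. Lsm3, of the LSM ring that promotes decapping and also of the spliceosomal LSM complex, went against that median at 116.5, 104 and 134 FPKM in AVP libraries against 33.9, 50.8 and 73.7 FPKM in control libraries (log2 fold change 1.29, SE 0.34, adjusted p = 0.303 by limma). Ddx6, the helicase that joins CCR4-NOT to decapping, also had higher AVP libraries without overlap (log2 fold change 0.64, SE 0.44), but its value was 0.31 without control replicate 1. Lsm3 and Ddx6 were 2 of 17 on the higher side (11.8%), against 7.49% of all features tested.

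Of 12 tested RNA exosome and SKI genes, 0 passed, 6 lay above 0 and 6 below, and the median was 0.10 (−0.56 to 0.25 as each library was left out). Exosc1 was at 6.645, 0 and 0 FPKM in AVP libraries against 11.5, 29.6 and 12.2 FPKM in control libraries, without overlap, and Exosc4 was without overlap on the higher side (log2 fold change 1.02, SE 0.52). Each side thus held 1 of the 12 (8.33%), against 6.49% of all features on the lower side and 7.49% on the higher. Other proteins that bind AU-rich elements or stem-loops lay mostly below 0: of 19 tested, 0 passed, 6 lay above 0 and 13 below, with a median of −0.22 (−0.40 without AVP replicate 1 and −0.54 without AVP replicate 3). For Hnrnpa0, Hnrnpa1 and Hnrnpab, which encode heterogeneous nuclear ribonucleoproteins, the AVP libraries lay wholly below the controls (3 of 19, or 15.8%, against 6.49% of all features). Hnrnpa1 had 33.2, 45.3 and 40.9 FPKM in AVP libraries against 75.7, 76.5 and 53.5 FPKM in control libraries, giving −0.68 on the log2 scale (SE 0.30, adjusted p = 0.594 by limma). Hnrnpa0, a reported substrate of MK2, had a log2 fold change of −0.89 (SE 0.37).

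TTP is phosphorylated by MK2, the kinase downstream of p38 MAPK, then held inactive by 14-3-3 proteins, and DUSP1 switches p38 off. Of 21 tested genes for these regulators and those of regnase-1, 0 passed, 11 lay above 0 and 10 below, with a median of 0.17 (−0.03 without AVP replicate 1). Dusp1 had 1010.0, 949.7 and 898 FPKM in AVP libraries against 594, 451 and 589 FPKM in control libraries, without overlap, at a log2 fold change of 0.90 (SE 0.20, limma adjusted p = 0.235). Dusp1 also stands on the list of reported ZFP36 targets below, so those lists are not separate. Zfp36 over Dusp1 was 0.766, 1.154 and 0.859 in AVP libraries, against 0.706, 0.734 and 1.073 in control libraries, and overlapped (exact permutation p = 0.5, adjusted p = 0.5 over the 6 ratios). The log2 fold change of Mapk14, the p38-alpha gene, was 0.71 (SE 0.38), and the 14-3-3 genes Ywhaz and Ywhae had 0.84 (SE 0.39) and 0.83 (SE 0.51), all with overlapping groups. The value of Ywhae was 0.23 without control replicate 1 and 1.25 without control replicate 2. Malt1, the paracaspase that cleaves regnase-1, had AVP libraries below control libraries without overlap and is named after its values were seen. Each side held 1 of the 21 without overlap (4.76%), against 7.49% of all features on the higher side and 6.49% on the lower.

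Reported targets of the ZFP36 family lay mostly above 0, in a list that was drawn up with earlier results of these libraries known and so is no independent evidence of it. Of 29 targets, 20 were tested and 0 passed, 18 lay above 0 and 2 below, with a median log2 fold change of 1.79, and for 17 of the 20 (85%) the AVP libraries lay wholly above the controls, against 7.49% of all features tested and 17.4% of those averaging at least 100 FPKM. The filter shapes these figures, since 2 of the 20 entered through AVP libraries alone and 9 targets were too low to be tested. With no filter on low values, the list's median was 0.97. Cxcl2, a neutrophil chemokine gene, was at 2098, 2019 and 2611 FPKM in AVP libraries against 9.67, 28.8 and 135 FPKM in control libraries. Its log2 fold change was 6.07 (SE 0.78, limma adjusted p = 0.0656). Ier3, an immediate-early gene with 4 heptamers (TATTTAT) and 0 nonamers, was at 267, 278.9 and 318 FPKM in AVP libraries against 93.6, 88.2 and 110.0 FPKM in control libraries (log2 fold change 1.64, SE 0.22, limma adjusted p = 0.0656). Nfkbiz, which encodes the NF-kB cofactor I-kappa-B-zeta, was at 206, 216 and 284 FPKM in AVP libraries against 42.5, 63.8 and 94.98 FPKM in control libraries (log2 fold change 1.94, SE 0.33). Cxcl3 was listed at 0 in all 3 control libraries, so it entered through AVP libraries alone. It could only come out higher, and it left the test when any AVP library was left out. With the filter at 10 FPKM, 4 genes of the pathway lists passed. Among them were Cxcl2, Ier3 and the regnase-1 target Nfkbid, each with an adjusted p of 0.0301 by limma. Without control replicate 3, 2 genes of the lists passed, Cxcl2 among them (adjusted p by limma 0.00577). Cxcl2 also passed with a pseudocount of 5 (adjusted p by limma 0.0467). Cxcl3 fell under 0.05 without the intensity trend (limma adjusted p = 0.0479), which is no support given how it entered.

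The ratio of Zfp36 to its target Cxcl2 follows the Cxcl2 values above and is given for scale. Zfp36 over Cxcl2 was 0.369, 0.543 and 0.2955 in AVP replicates 1, 2 and 3, against 43.4, 11.5 and 4.67 in control replicates 1, 2 and 3. The groups did not overlap, with lower values in the AVP libraries (exact permutation p = 0.1, adjusted p = 0.3 over the 6 ratios). Among the controls, replicate 3 had the most Zfp36 and also the most Cxcl2. Of 23 reported regnase-1 targets, 9 were too low to be tested and 14 were tested, 1 of them entering through AVP libraries alone. Of the 14, 0 passed, 13 lay above 0 and 1 below, and 11 did not overlap on the higher side (78.6%, against 7.49% of all features tested and 17.4% of those averaging at least 100 FPKM). On the lower side 1 did not overlap (7.14%, against 6.49%). Zc3h12a, itself among the 8 members, is on this list, so the list is not separate from them. Their median was 1.25, with 0.78 without AVP replicate 1 and 0.87 with no filter on low values. Several of them, such as Cxcl2, Cxcl3, Ier3, Il1b and Nfkbiz, stand on both lists. Nfkbid, an atypical I-kappa-B gene, was at 112, 90.4 and 141.5 FPKM in AVP libraries against 17.6, 20.3 and 22.6 FPKM in control libraries (log2 fold change 2.52, SE 0.32, adjusted p = 0.0656 by limma), while Il17ra, the gene on the lower side without overlap, is named after its values were seen.

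**Figure D5:**
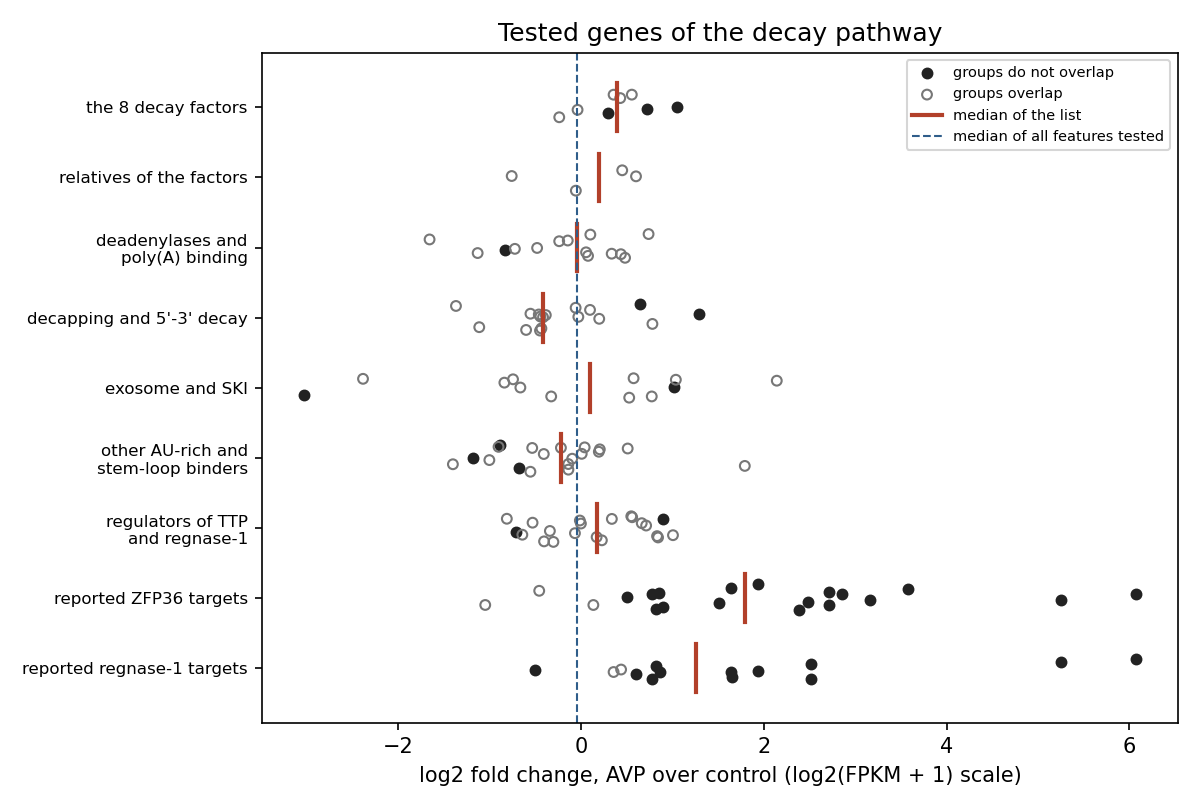
Log2 fold change, AVP over control, of the tested genes of each list of the decay pathway (x axis, log2(FPKM + 1) scale), with filled points for genes whose groups do not overlap, open points for those that do, a red bar at each list's median and a dashed line at the median of all features tested (−0.04). The 8 decay factors have a median of 0.39, the lists between them medians of −0.42 to 0.20, and the reported target lists 1.79 and 1.25.

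Of the 29 reported ZFP36 targets, 15 held at least 1 nonamer, as did 11 of the 20 tested. These figures rest on 1 transcript per gene. Those taken for Vegfa and Tlr2, scored as without a nonamer, had 3′ UTRs of only 27 and 148 bases. Among the named ones, Cxcl2 and Cxcl3 held it and Ier3, Nfkbiz and Il1b did not. Among all 6889 tested features with an annotated 3′ UTR, the 496 that held a nonamer showed a median log2 fold change of 0.09, with 12.3% of them wholly higher in the AVP libraries. The 6393 without one had a median of −0.03, with 7.32% on that side. The share on the lower side was 4.03% with a nonamer and 6.37% without. The groups also differed in 3′ UTR length, with medians of 2292 bases with a nonamer and 920.0 bases without, and in level, with medians of 5.535 and 8.04 FPKM. The part of length and level in the difference was not tested. For the shorter heptamer TATTTAT, which the nonamer contains, the medians were close: −0.02 over the 1929 features with one and −0.02 over the 4960 without, with 9.23% and 7.08% wholly higher in the AVP libraries.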

How the data were processed

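RNA of flow-sorted blood neutrophils was made into TruSeq libraries and sequenced as read pairs with an Illumina NovaSeq, per the labels' protocols. bcl2fastq 2.19, cutadapt 1.16.5, HISAT2 2.1, featureCounts 1.6.4, DESeq2 2.11.40.6 and the mm10 build are listed per the submitters' processing notes, while for their roles and the annotation no statement is given in the sources used. The deposited values are taken to be FPKM made by the authors. The files name no unit, so this was inferred from non-whole values whose totals differ between libraries (755140 to 829725). Such values are not counts, depth is an estimate, and a 0 can be a failed estimate. Fold changes and intervals rest on the spread between libraries, which includes counting error. Gene identifiers and coordinates come from RefSeq (GRCm38, the assembly of mm10), in which all 8 members were matched by symbol.

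The 8523 features that reached 1 FPKM in 3 or more libraries were tested. Scaling used a trimmed mean of log ratios (30% and 5% trimmed) to the geometric mean library and values were analysed as log2(FPKM + 1) with limma 3.58.1 in R 4.3.3, using an intensity trend, Benjamini-Hochberg adjustment over all features tested and a threshold of 0.05. Printed FPKM, shares and ratios are on the deposited scale unless called scaled. Single values were compared by exact permutation over libraries, two-sided. The members and lists were chosen with earlier results of these data known. From each list the genes named were the 4 with the smallest p among those averaging at least 5 FPKM and the 2 with the highest mean, of which the text gives some. Genes outside that rule are members, their relatives, genes picked by likeness or markers listed at 0, or are marked as named after their values were seen. Vegfa and Tlr2 are named for their short 3′ UTRs. Replicate numbers come from the labels, which do not state whether they mark a shared animal or batch. The procedure was tested on simulated data. The alternatives were 2 other scalings and none, 2 other filters, 2 other pseudocounts (0.1 and 5), other moderation, a replicate block and each library left out. For the motif search, 1 transcript per gene was taken by APPRIS rank and then by coding length. Tables, motif searches and plots used matplotlib 3.10.9, scipy 1.17.1, pandas 2.3.3 and numpy 2.4.6 in Python 3.11.15.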

Additional observations from a re-analysis of the deposited data

How the results depend on the processing

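Under 16 alternatives, no member passed an adjusted p of 0.05, and 7 of the 8 members kept the sign of their fold change. Tob2 turned to 0.006 with a pseudocount of 5, to 0.60 without AVP replicate 1 and to 0.47 without control replicate 3, and as each library was left out it lay between −0.471 and 0.597. The fold change of Zfp36 stayed within 0.85 to 1.30 (adjusted p by limma 0.234 to 0.733) and that of Btg2 within 0.60 to 0.95 (adjusted p 0.396 to 0.77), both highest without control replicate 3. Zfp36 and Btg2 did not overlap between groups under any alternative, and Btg1 overlapped without scaling. The members without overlap numbered 3 to 4 on the higher side and 0 to 1 on the lower side as each library was left out, Zfp36l2 being the 1 without control replicate 3, where Zc3h12a joined the higher side. With 2 libraries against 3, such separation is commoner, at 11.8% to 13.9% of all features on the higher side and 10.9% to 13.8% on the lower. Zc3h12a and Tob2 were not tested under the 10 FPKM filter.

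Features called higher at an adjusted p under 0.05 numbered 0 in the analysis reported (402 at an unadjusted p under 0.05), 11 with the 10 FPKM filter, 3 with a pseudocount of 5 and 1 without the intensity trend, and 0 to 4 as each library was left out. The most was without control replicate 3. Features called lower were 0 under all of them. Genes of the pathway lists called numbered 4, 1 and 1 under those same settings and 0 to 2 as each library was left out. The cause was not tested. The share of higher among features at an unadjusted p under 0.05 was 55.7% and 47.9% without scaling, and 43.1% without AVP replicate 2. Same-numbered libraries of the 2 groups deviated from their group means with correlations of 0.02, −0.01 and −0.04, so no strong shared deviation was seen. A shared animal or batch that moved few features would not show in such values, so pairing by number stays undecided. The fit with a replicate block called 0 features, with an unadjusted p under 0.05 for 357 on the higher side and 313 on the lower.

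Single genes named in the lists turned sign as follows. N4bp1 turned to 0.38 without AVP replicate 1 and 0.07 without control replicate 2 (lowest −0.521 as each library was left out). Cnot8 turned to −0.05, −0.125 and −0.215 without AVP replicate 1, AVP replicate 2 and control replicate 2 (highest 1.49). Lsm5 and Exosc3 turned to 0.46 and 0.39 without AVP replicate 3 (lowest −1.249 and −1.234). Tob2 and Zc3h12a had the fewest estimated fragments of the members, 22 to 459, and the part of depth in their spread was not tested.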
